A study of Homo sapiens with 8 samples.

Results

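Cyclic nucleotide phosphodiesterase (PDE) genes were followed in LX-2 cells, an immortalised line of human hepatic stellate cells with the features of activated, matrix-producing myofibroblasts. The 10 genes described in depth were PDE1C, PDE2A, PDE3A, PDE4A, PDE4B, PDE4D, PDE5A, PDE7A, PDE7B and PDE8A, out of 16796 genes in the count files. They were found by gene symbol. They had been picked with the comparison of treated and control cells already known, so the values of that comparison are given for them as a description. No p-value is given for them, and whether one of them passed the threshold used for all genes is stated only to describe it. All cells grew in DMEM with 5% fetal bovine serum. The control group (4 libraries) received no OSMI-1, and the OGTi group (4 libraries) received OSMI-1 at 50 µM, in both cases during 24 h. OSMI-1 inhibits O-GlcNAc transferase (OGT), the enzyme that attaches the sugar O-GlcNAc to nuclear and cytoplasmic proteins. Messenger RNA of this 1 cell line was measured at 1 dose and 1 time. The libraries were described as biological replicates, and control and treated libraries with the same number were paired.

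PDEs hydrolyse the intracellular messengers cAMP and cGMP and so set how high, how long and where in the cell these signals last. The families differ in substrate: PDE4, PDE7 and PDE8 enzymes cleave cAMP, PDE5, PDE6 and PDE9 enzymes cleave cGMP, and PDE1, PDE2, PDE3, PDE10 and PDE11 enzymes cleave both. In hepatic stellate cells, agents that raise cAMP or cGMP are known to relax the cells and to restrain their activation.

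Totals were between 24166756 and 28201215 expected counts per library. Of the 2 genes for the enzymes that attach and remove O-GlcNAc, OGT itself was at 5636 ± 261 normalized counts (SD, n = 4) in control and 4146 ± 477 (n = 4) in OGTi libraries. OGA, which removes O-GlcNAc, was at 3159 ± 423 and 903.5 ± 85.3. Both were called lower (log2 fold change -0.45 ± 0.09 (SE), q = 1.48e-06, and -1.80 ± 0.09, q = 1.69e-92). These mRNA levels do not measure the enzyme activity that OSMI-1 inhibits. To normalize, the count of a gene was divided by its library's size factor, and a gene was called when its adjusted p-value (q) in DESeq2 was 0.05 or lower. Of the 14895 genes tested, 14028 received a q, and those without one counted as not called. The labelled cell type was checked against 13 stellate cell and myofibroblast markers. VIM, COL1A1 and COL3A1 were abundant, and PDGFRB and ACTA2 had control means of 2280 ± 251 and 717 ± 312 normalized counts. The listed markers DES and LRAT were near 0, with control means of 3.58 ± 0.59 and 2.20 ± 2.51. HAND2, also on the list, had 1 count over all libraries and was not tested. Of the 12 markers tested, 2 were called higher and 6 lower, with NGFR at 3.96 ± 0.13 (q = 7.92e-209), COL3A1 at -2.50 ± 0.11 (q = 3.36e-112) and COL1A2 at -1.39 ± 0.10 (q = 2.77e-40). The hepatocyte list had 2 of its 5 genes in the files, with sums between 19.5 and 74.0 normalized counts in every library, and the gene tested, SERPINA1, was not called (q = 0.880). The endothelial list summed to 47.7 to 91.1 in control and 17.0 to 33.8 in OGTi libraries, and 1 of 3 genes tested was called, CDH5, which was lower (-3.31 ± 0.62, q = 5.83e-07). The macrophage list had 1 of 3 tested genes called, CD68, at 3236 ± 659 and 7687 ± 1622 (1.25 ± 0.08, q = 1.61e-51), while the leukocyte marker PTPRC stood at 7.64 ± 4.04 and 2.85 ± 2.28. CD68 is a lysosomal protein that other cell types also make. The cholangiocyte list had KRT7 lower (-1.05 ± 0.26, q = 2.29e-04) and SOX9 higher (0.35 ± 0.11, q = 0.00715), and KRT19 was near 0. The SOX9 call was lost without the replicate block (q = 0.0855) and without replicate 1 (q = 0.0936) or replicate 3 (q = 0.0851). The part of these marker changes in the PDE values was not tested. All libraries were labelled as 1 cell line, and in bulk libraries fewer cells that express a marker and less of its RNA per cell cannot be told apart.

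Reference sequence upstream of a start site is shown for the 4 genes whose control and treated libraries did not overlap, since these carry the contrast described below. Each stretch lies outside the transcribed part of the gene, is written in the direction of transcription and comes from RefSeq on GRCh38.p14. For PDE1C, PDE4A and PDE5A it is the 100 bases before the outermost RefSeq start. For PDE2A it is the 81 bases of the promoter window that lie beyond every annotated start. Capitals mark matches, on either strand, to the GC box GGGCGG (in PDE1C and PDE5A) or to the short cAMP response element TGACG (in PDE4A).
PDE2A, chr11:72674592-72674672, minus strand: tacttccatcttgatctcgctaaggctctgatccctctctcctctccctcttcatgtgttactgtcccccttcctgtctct
PDE1C, chr7:32428225-32428324, minus strand: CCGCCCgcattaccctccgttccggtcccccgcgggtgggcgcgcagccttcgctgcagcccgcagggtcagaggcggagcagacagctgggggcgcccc
PDE4A, chr19:10416673-10416772, plus strand: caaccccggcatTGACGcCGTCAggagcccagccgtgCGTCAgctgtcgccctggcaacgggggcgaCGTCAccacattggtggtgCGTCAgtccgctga
PDE5A, chr4:119628805-119628904, minus strand: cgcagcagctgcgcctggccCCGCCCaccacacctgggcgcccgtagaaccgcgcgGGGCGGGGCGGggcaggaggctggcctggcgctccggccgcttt

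The 4 stretches differed in composition. The PDE2A stretch held 1 CpG and had a GC content of 50.6%, whereas those of PDE1C, PDE4A and PDE5A held 12, 11 and 13 CpG and had GC contents of 77%, 68% and 80%. The promoter table had 34 windows for 9 of the 10 genes (all but PDE7A) among 35116 windows in all, and the 250 bases before each start were searched on both strands. Over all windows the median was 11 CpG. It was 1 for the only PDE2A window, 0 for the only PDE3A window, 2.5 over 6 PDE4B windows, 4 for the only PDE7B window, 5 over 8 PDE4D windows, 21.5 over 6 PDE1C windows, 28 over 5 PDE4A windows, 20 over 3 PDE5A windows and 33 over 3 PDE8A windows. Of all windows, 14.7% held 0 or 1 CpG. PDE3A, PDE4B, PDE4D and PDE7B, which were not called, also lay under the overall median. In the PDE2A window, 169 of the 250 bases searched lie inside the annotated transcribed part of the gene.

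The full cAMP response element TGACGTCA was found in 1.65% of all windows and in 1 of the 34, that of PDE7B. Its short form TGACG, which is contained in the full element, was found in 21.2% of all windows and in 3 of the 34, of PDE4A, PDE4D and PDE7B. The outermost PDE4A window held 5 such matches, all of them in the stretch shown. The GC box was found in 42.6% of all windows and in 14 of the 34, from 6 genes. The TEAD motif GGAATG was in 11.9% of all windows and in 3 windows of PDE1C and PDE4D, and the AP-1 motif TGANTCA was in 6.57% and in 3 windows of PDE3A and PDE4D. None of these 5 motifs was found in the PDE2A window. A match is a run of letters and not a bound site, and start sites used by LX-2 cells were not measured.

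Among the enzymes that cleave both messengers, PDE1C and PDE2A moved in opposite directions. PDE1C (chr7:31751179-32428131, minus strand, GRCh38) encodes a calcium- and calmodulin-stimulated enzyme found in proliferating smooth muscle cells. Control libraries 1 to 4 had 2392, 3026, 3442 and 2679 normalized counts, and OGTi libraries 1 to 4 had 868, 1102, 1156 and 1095. The groups did not overlap, as the lowest control library was above the highest treated one. The log2 fold change was -1.45 ± 0.08 (SE), or 2.73-fold lower, and the 4 pairs gave log2 ratios between -1.57 and -1.29.

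PDE2A (chr11:72576141-72674591, minus strand) encodes an enzyme that is stimulated by cGMP and then cleaves cAMP, a point of crosstalk between both messengers. It had 156, 201, 193 and 253 normalized counts in control and 2000, 962, 979 and 1174 in OGTi libraries. Every treated library was above every control library, and OGTi replicate 1 was far above the other 3. This gave a log2 fold change of 2.61 ± 0.34, or 6.12-fold higher, with pair ratios of 3.67 for replicate 1 and 2.21 to 2.34 for the others. Without replicate 1 the log2 fold change was 2.27 ± 0.14.

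PDE3A (chr12:20368537-20688583, plus strand) encodes a cGMP-inhibited enzyme that controls cAMP in heart, platelets and smooth muscle. It was low, with 37.0, 14.1, 16.1 and 5.2 normalized counts in control and 52.1, 13.1, 8.65 and 7.01 in OGTi libraries. Replicate 1 was the highest in both groups and the groups overlapped. The log2 fold change of -0.01 ± 0.55 was not called and its sign depended on the setting, being 0.16 ± 0.69 without the replicate block.

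Among the cAMP-specific genes, PDE4A fell and the others changed little or could not be resolved. PDE4 enzymes are the targets of rolipram and are placed in the cell by anchoring proteins. PDE4A (chr19:10416773-10469630, plus strand) had 591, 643, 719 and 637 normalized counts in control and 242, 313, 289 and 308 in OGTi libraries. The groups did not overlap, and the libraries within a group lay close together. On the log2 scale the change was -1.17 ± 0.12, or 2.25-fold lower, and the pair ratios were between -1.31 and -1.04.

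PDE4D (chr5:58969038-60522120, minus strand), the longest of the 10 genes at 1553 kb, had 434, 430.2, 575 and 543 normalized counts in control and 442, 355, 412 and 406 in OGTi libraries. It was lower in 3 of 4 pairs, and replicate 1 showed no drop. The log2 fold change of -0.29 ± 0.13 was not called, but PDE4D was called lower by edgeR, under the stricter count filter and without replicate 1, where it was -0.39 ± 0.15. PDE4B (chr1:65792514-66374579, plus strand), an isoform best known from leukocytes, was near the detection limit, with 6.82, 8.46, 3.45 and 6.24 normalized counts in control and 3.66, 7.03, 0 and 3.01 in OGTi libraries. With 39 counts over all libraries, its log2 fold change of -1.23 ± 1.07 was not called and no difference could be detected at this depth.

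PDE7A and PDE7B encode cAMP-specific enzymes that rolipram does not inhibit. PDE7A (chr8:65714334-65842322, minus strand) had 217, 228, 261 and 194 normalized counts in control and 329.9, 243, 221 and 250.4 in OGTi libraries. The groups overlapped, 3 of 4 pairs were higher after OGTi, and the log2 fold change of 0.21 ± 0.18 was not called. PDE7B (chr6:135851701-136195574, plus strand) had 126, 113, 153 and 128 in control and 108, 97.4, 134 and 111 in OGTi libraries. All 4 pairs were lower by nearly the same ratio, between -0.22 and -0.19 on the log2 scale. The groups overlapped and the log2 fold change of -0.21 ± 0.21 was not called.

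PDE8A (chr15:84980440-85139145, plus strand) encodes a cAMP-specific enzyme of high affinity that the general inhibitor IBMX does not block. It had 762, 1039, 1197 and 1092 normalized counts in control and 730.2, 823, 902 and 989 in OGTi libraries. The groups overlapped although all 4 pairs were lower. The log2 fold change was small at -0.24 ± 0.10 and was called lower with the pairs kept. The call was lost without the replicate block (-0.25) and without replicate 2 (-0.20), replicate 3 (-0.18) or replicate 4 (-0.27).

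PDE5A (chr4:119494397-119628804, minus strand) encodes the cGMP-specific enzyme that sildenafil inhibits. It had 142, 132, 191 and 140.4 normalized counts in control and 38.4, 36.2, 47.1 and 43.1 in OGTi libraries. The groups did not overlap, and control replicate 3 was above the other 3 control libraries. The log2 fold change was -1.87 ± 0.25, or 3.66-fold lower, with pair ratios between -1.995 and -1.68.

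**Figure D1:**
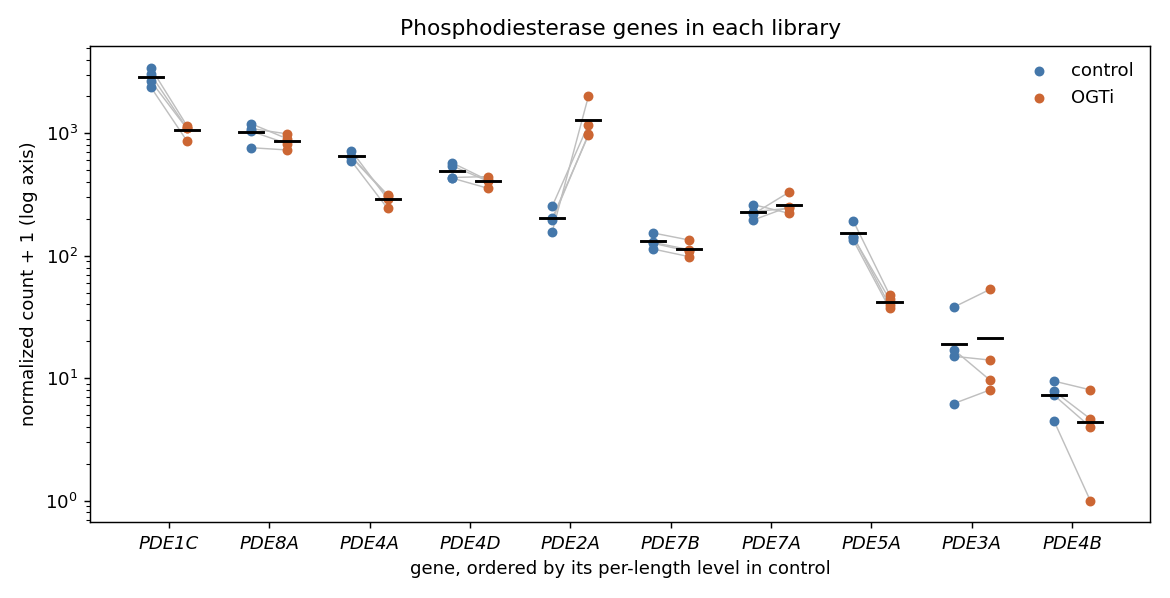
Normalized counts plus 1 (vertical, log axis) of the 10 PDE genes (horizontal) in each library; blue points are control and orange points OGTi libraries, grey lines join the pairs and black bars are group means of 4 libraries. PDE2A rose in every pair (2.21 to 3.67 on the log2 scale), PDE1C, PDE4A and PDE5A fell in every pair without overlap, and PDE3A and PDE4B lay at the bottom with wide scatter.

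All 10 genes passed the count filter. Of these, 1 (PDE2A) was called higher and 4 (PDE1C, PDE4A, PDE5A and PDE8A) were called lower, while 5 were not called. Among the 14895 genes tested, 43.9% were called, 21.4% higher and 22.6% lower. Groups did not overlap for 4 of the 10 genes (1 higher, 3 lower) and for 38.0% of all genes (18.8% higher, 19.2% lower). The median log2 fold change was -0.26 over the 10 genes and 0.00 over all genes. As the genes were picked with this contrast known, nothing is read from these counts. Counts of 3 of the 10 (PDE3A, PDE4D and PDE7A) were fractional in at least 1 library, since some of their reads also aligned elsewhere.

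The human genome has 21 catalytic PDE genes, of which 20 were in the files and 19 were tested. Of the 11 that were not among the 10 above, 10 were in the files and 9 were tested, and only PDE1A was called. PDE1A, a calmodulin-stimulated relative of PDE1C, had 21.4, 15.97, 21.8 and 5.2 normalized counts in control and 5.48, 2.01, 0.961 and 4.01 in OGTi libraries. It was lower in 4 of 4 pairs, but control replicate 4 lay within the treated range. Its log2 fold change was -2.34 ± 0.84 (q = 0.0139), and the call was lost without replicate 1 (q = 0.0595), replicate 2 (q = 0.0896) or replicate 3 (q = 0.148). It was too low to enter the fit under the stricter count filter. The calmodulin-stimulated genes PDE1A and PDE1C were therefore both called lower, while PDE1B, the other member of that subfamily, was at 13.5 ± 7.6 and 12.7 ± 4.6 and was not called (0.00 ± 0.67, q = 0.999).

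PDE9A, which encodes a cGMP-specific enzyme of high affinity, was at 135.5 ± 39.0 in control and 146 ± 41 in OGTi libraries (0.11 ± 0.21, q = 0.693). PDE4C, another cAMP-specific PDE4 gene, was at 20.8 ± 2.4 and 22.5 ± 1.3 (0.12 ± 0.47, q = 0.869). The photoreceptor genes PDE6A and PDE6B were at 43.6 ± 13.2 and 50.5 ± 10.97 (q = 0.631) and at 4.41 ± 1.85 and 5.54 ± 2.22 (q = 0.807). PDE10A, PDE8B and PDE11A had means under 6 normalized counts in both groups and were not called, and PDE3B had 1 count in 1 library. PDE8B and PDE11A received no q and so could not be called. Over the whole family 1 gene was called higher and 5 lower, or 31.6% of those tested, beside 43.9% of all genes. This count includes the genes picked with the contrast known, and nothing is read from it.

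Of 3 genes tested that accompany PDE enzymes, 2 were called higher. PDE6D, a carrier of prenylated proteins first found as a PDE6 subunit, went from 1236 ± 159 to 1713 ± 112 (0.48 ± 0.10, q = 7.93e-06) and was higher in 4 of 4 pairs. PDE4DIP, myomegalin, which anchors PDE4D at the Golgi and centrosome, went from 2688 ± 428 to 4842 ± 463 (0.86 ± 0.19, q = 3.75e-05), also in 4 of 4 pairs. Its counts were fractional in all 8 libraries, and near-identical copies in the genome can share its reads, so its level is uncertain. PDE6G, the inhibitory subunit gene of rod PDE6, was low at 17.6 ± 5.8 and 10.5 ± 5.2 (-0.81 ± 0.63, q = 0.309) and was not called.

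**Figure D2:**
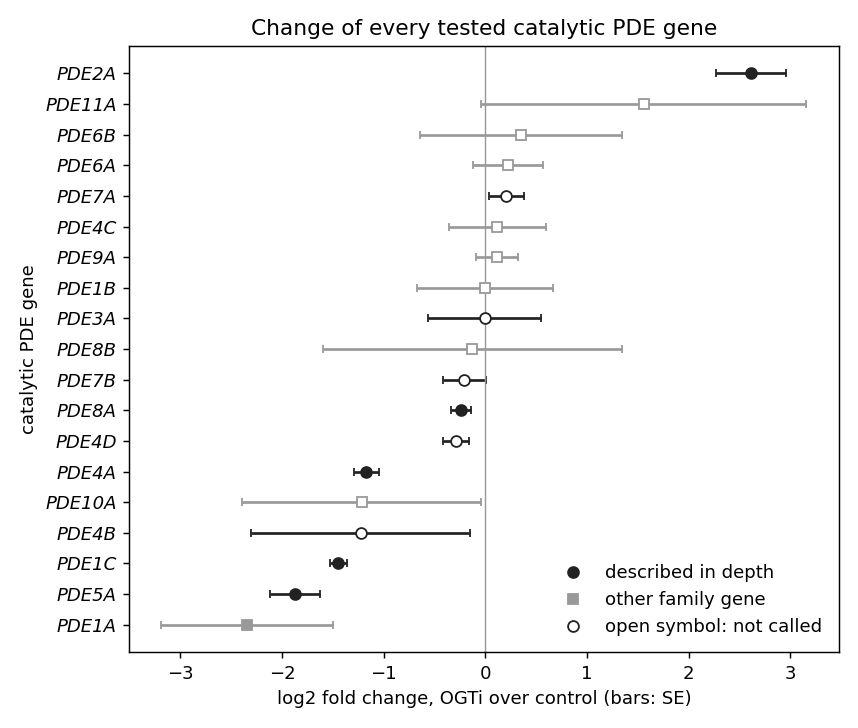
Log2 fold change of OGTi over control (horizontal, bars are SE from the model over 4 pairs) for the 19 catalytic PDE genes tested (vertical, sorted); black circles are the 10 genes described in depth, grey squares the other 9, and open symbols were not called. PDE2A stands alone among the called genes on the right at 2.61, the called genes on the left run from PDE8A at -0.24 to PDE1A at -2.34, and low genes such as PDE11A and PDE8B have wide bars.

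Levels of different genes were set side by side as normalized counts per kb of merged exon length, a quantity that does not depend on the comparison of the groups. In control cells PDE1C was the most abundant at 204 ± 32 per kb (SD, n = 4), followed by PDE8A at 128 ± 23 and PDE4A at 95.8 ± 7.9. PDE4D (30.4 ± 4.5), PDE2A (27.9 ± 5.6), PDE7B (21.9 ± 2.8), PDE7A (21.3 ± 2.6) and PDE5A (15.8 ± 2.8) formed a middle group, and PDE3A (1.4 ± 1.0) and PDE4B (0.699 ± 0.234) were lowest. Ranges over the libraries were separate for 3 of the 9 neighbouring pairs in this order, PDE1C over PDE8A, PDE4A over PDE4D and PDE5A over PDE3A. The other neighbours did not differ beyond their ranges, although PDE8A was above PDE4A within each of the 4 libraries. PDE1C, PDE8A and PDE4A were also the first 3 in this order by longest transcript or by coding length, with the coding length added after the data had been seen. The number of separate pairs was 5 without replicate 1 and 6 without replicate 3.

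In OGTi cells the order by per-kb level began with PDE2A at 178 ± 68 and went on with PDE8A at 108 ± 14, PDE1C at 74.7 ± 9.0, PDE4A at 42.6 ± 4.8, PDE4D at 24.7 ± 2.2, PDE7A at 24.6 ± 4.5 and PDE7B at 18.9 ± 2.6. PDE5A was at 4.30 ± 0.51 per kb, PDE3A at 1.52 ± 1.61 and PDE4B at 0.383 ± 0.323. The order depended on the length used. Per kb of coding sequence PDE2A was in place 7 in control, and in OGTi libraries PDE1C (457 ± 55) and PDE2A (453 ± 174) came first with overlapping ranges. By merged exon length the ranges of PDE2A, PDE8A, PDE1C, PDE4A and PDE4D were separate from one neighbour to the next.

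The per-kb levels of all 20 catalytic genes summed to 587 ± 63 in control and 519 ± 53 in OGTi libraries, with overlapping ranges of 514 to 668 and 479 to 594. By merged exon length, the make-up of this sum changed more than its size. PDE1C made up 34.6% ± 2.0 (SD, n = 4) of it in control and 14.6% ± 3.0 in OGTi libraries, and PDE2A 4.77% ± 0.93 and 33.6% ± 9.0. PDE4A made up 16.3% ± 0.5 and 8.33% ± 1.59, PDE5A 2.69% ± 0.30 and 0.836% ± 0.145, and PDE8A 21.6% ± 2.2 and 20.98% ± 3.88. The PDE2A share was 46.9% in OGTi replicate 1 and 27.95% to 31.4% in the other 3 treated libraries. These shares rest in part on the contrast with which the genes were picked and were not tested. The sum is given by merged exon length only, and its overlap between groups need not hold by coding length. Per kb of coding sequence the fall of PDE1C (1250 ± 196 in control, 457 ± 55 in OGTi libraries) was larger than the rise of PDE2A (71.1 ± 14.1 and 453 ± 174).

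By substrate, cAMP-specific genes made up 51.2% ± 1.5 of the summed level in control and 43.2% ± 5.7 in OGTi libraries, genes for both messengers 40.4% ± 1.6 and 49.0% ± 6.2, and cGMP-specific genes 8.36% ± 2.16 and 7.75% ± 1.58. The summed level of the cAMP-specific genes was 301 ± 37 per kb in control and 222 ± 14 in OGTi libraries, without overlap (256 to 346 and 207 to 240.0). The direction of the shares depended on the length used. Per kb of coding sequence the cAMP-specific share was 42.7% in control and 46.0% in OGTi libraries, and the share of genes for both messengers was 51.4% and 47.8%. Without replicate 1 the cAMP-specific share was 51.7% in control and 46.0% in OGTi libraries. Levels of mRNA do not give the activity of the enzymes.

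**Figure D3:**
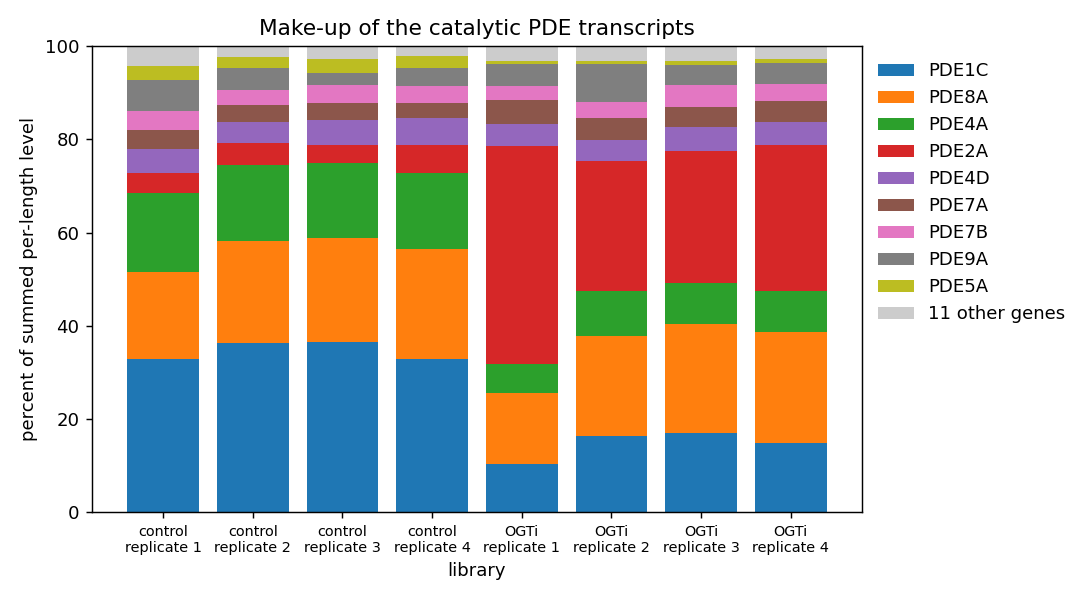
Share of each gene (vertical, percent) in the summed per-kb level of the 20 catalytic PDE genes in the files, for each library (horizontal, 4 control and 4 OGTi). PDE1C (blue) fills 32.8% to 36.5% of each control and 10.3% to 17.0% of each OGTi library, PDE2A (red) 4.03% to 6.09% and 27.95% to 46.9%, and OGTi replicate 1 has the largest PDE2A share.

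The rest of the cyclic nucleotide system was described from 9 lists of genes chosen by name, 110 genes in all, of which 102 were in the files and 88 were tested. Of these, 22 were called higher and 24 lower, or 52.3% against 43.9% of all genes, with a median log2 fold change of 0.05 against 0.00. The lists were drawn up with earlier results of these data known. Their counts and q-values are therefore a description, and nothing is read from the share called. In each list up to 3 genes with the largest statistic are named, and other genes of the lists are added, which was done after their values were seen.

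Enzymes that make cAMP are the adenylyl cyclases. Of 6 adenylyl cyclase genes tested, 4 were called lower and 0 higher, with a median of -0.41. ADCY9 went from 2362 ± 155 to 1602 ± 39 normalized counts (-0.56 ± 0.08, q = 1.36e-11), and ADCY7 from 487 ± 19 to 259 ± 23 (-0.92 ± 0.14, q = 1.32e-10). ADCY3 went from 3069 ± 306 to 2552 ± 222 (-0.26 ± 0.08, q = 0.00189), a call that was lost without replicate 4 (q = 0.0641). The low gene ADCY5 went from 38.2 ± 18.3 to 10.5 ± 2.8 (-1.78 ± 0.52, q = 0.00225), and its call was lost without replicate 1 (q = 0.05004) or replicate 2 (q = 0.0787). ADCY6 was at 2216 ± 165 and 2178 ± 167 and was not called (-0.02 ± 0.08, q = 0.822). ADCY10 was very low at 1.02 ± 1.47 and 5.09 ± 2.16. It was higher in 4 of 4 pairs but received no q and so could not be called.

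On the cGMP side, 9 of 15 listed genes for guanylyl cyclases, natriuretic peptides and NO synthases were tested, and 2 were called, both lower. Of those tested, NPPC, GUCY1A2, GUCY1B1 and NOS2 received no q and so could not be called. NPPB, which encodes B-type natriuretic peptide, a ligand of the receptor cyclase NPR1, went from 329.9 ± 70.9 to 11.4 ± 12.8 (-5.79 ± 1.06, q = 3.32e-07). NPR3, the clearance receptor of these peptides, went from 263 ± 119 to 88.3 ± 21.6 (-1.50 ± 0.21, q = 5.66e-12). Only 13 of the 15 listed genes were in the files. The nitric oxide receptor subunits among them, GUCY1A2 (1.93 ± 3.14 and 1.22 ± 1.46) and GUCY1B1 (1.69 ± 2.23 and 2.46 ± 2.67), were near 0. The receptor cyclases were low, with NPR1 at 14.7 ± 4.1 and 24.4 ± 4.4 and NPR2 at 87.5 ± 11.3 and 74.0 ± 13.8.

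Among 16 genes tested for G proteins and Gs-coupled receptors, 4 were called higher and 3 lower. The parathyroid hormone receptor PTH1R fell from 1359 ± 63 to 472 ± 46 (-1.53 ± 0.10, q = 3.41e-53) and the melanocortin receptor MC1R from 168 ± 29 to 65.1 ± 14.0 (-1.38 ± 0.24, q = 9.31e-08). The prostanoid receptors PTGER4 (0.49 ± 0.14, q = 9.82e-04) and PTGIR (0.49 ± 0.17, q = 0.0104) and the receptor VIPR1 (0.90 ± 0.35, q = 0.0243) were among those called higher, and GNAI1 was called lower (-0.27 ± 0.08, q = 0.00382). The stimulatory subunit GNAS was at 33618 ± 2624 and 32293 ± 5293 and was not called (q = 0.449). Without replicate 2 or without replicate 3 the number called higher was 2, as PTGIR and VIPR1 were lost. PTGIR was also lost without replicate 1 (q = 0.0690), VIPR1 without replicate 4 (q = 0.146) and without the replicate block (q = 0.196), and GNAI1 without replicate 2 (q = 0.0771).

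Protein kinase A, the main effector of cAMP, had 7 of 8 tested genes called, 3 higher and 4 lower. The catalytic subunit PRKACA fell from 14549 ± 897 to 9558 ± 1087 (-0.61 ± 0.07, q = 2.17e-17), while the regulatory subunit PRKAR1B rose from 186 ± 21 to 618 ± 36 (1.73 ± 0.14, q = 1.59e-33). The inhibitor PKIA rose from 96.5 ± 38.3 to 231 ± 76 (1.29 ± 0.21, q = 2.60e-09), and the inhibitor PKIG fell (-0.76 ± 0.12, q = 3.29e-09). The other calls were PRKAR2B (0.38 ± 0.13, q = 0.0108), PRKAR1A (-0.45 ± 0.08, q = 3.07e-08) and PRKAR2A (-0.19 ± 0.08, q = 0.0251). PRKAR2A lost its call without the replicate block (q = 0.0915) and without replicate 2, 3 or 4, and PRKAR2B without replicate 2 (q = 0.154) or replicate 4 (q = 0.0768).

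Of 13 A-kinase anchoring protein genes tested, which tether the kinase and often a PDE4 enzyme, 5 were called higher and 3 lower. AKAP5 fell from 432 ± 57 to 156 ± 13 (-1.47 ± 0.15, q = 3.29e-22), AKAP3 rose from 50.1 ± 17.6 to 135 ± 14 (1.48 ± 0.27, q = 2.81e-07), and the mitochondrial anchor AKAP1 rose from 1175 ± 64 to 1559 ± 42 (0.41 ± 0.09, q = 9.49e-06). The number called lower was 1 without replicate 2 or without replicate 4. Among 11 other effectors tested, BVES, a membrane protein that binds cAMP, rose (0.74 ± 0.10, q = 7.78e-13), and of the cyclic nucleotide-gated HCN channels HCN2 (-0.57 ± 0.16, q = 0.00115) and the low gene HCN4 (-2.87 ± 1.09, q = 0.0206) fell and HCN3 rose (0.50 ± 0.16, q = 0.00488). The HCN3 call was lost without replicate 3 (q = 0.123), leaving 1 called higher, and the number called lower was 1 under the stricter count filter and without replicate 2, 3 or 4. The cGMP-dependent kinase PRKG1 was low at 10.1 ± 11.7 and 7.60 ± 3.29 and the cAMP sensor RAPGEF3 was at 199 ± 15 and 175 ± 38, neither called (q = 0.933 and 0.402).

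Of the 3 efflux pumps that can export cyclic nucleotides, ABCC4 fell (-0.42 ± 0.09, q = 3.49e-05) and ABCC5 rose (0.39 ± 0.11, q = 7.39e-04). Of 8 genes for CREB family factors and their coactivators, 3 were called lower and 0 higher, CRTC3 (-0.43 ± 0.07, q = 8.19e-08), ATF1 (-0.43 ± 0.09, q = 7.68e-06) and CREBBP (-0.28 ± 0.08, q = 0.00140). The CREBBP call was lost without replicate 4 (q = 0.0576). Of the 15 genes known to be induced by cAMP, 7 were called higher and 2 lower, with a median of 0.45. JUNB rose from 464.5 ± 47.1 to 1201 ± 173 (1.37 ± 0.12, q = 4.04e-30) and NR4A3 from 96.7 ± 33.0 to 359 ± 54 (1.92 ± 0.20, q = 1.36e-19), whereas CITED2 fell from 18927 ± 1689 to 12142 ± 1556 (-0.64 ± 0.07, q = 1.52e-20) and DUSP1 fell (-0.56 ± 0.09, q = 2.16e-08). These genes also respond to serum, stress and other signals, and NR4A1, PER1, SIK1 and CREM of the same list were not called (q = 0.765, 0.852, 0.469 and 0.298).

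**Figure D4:**
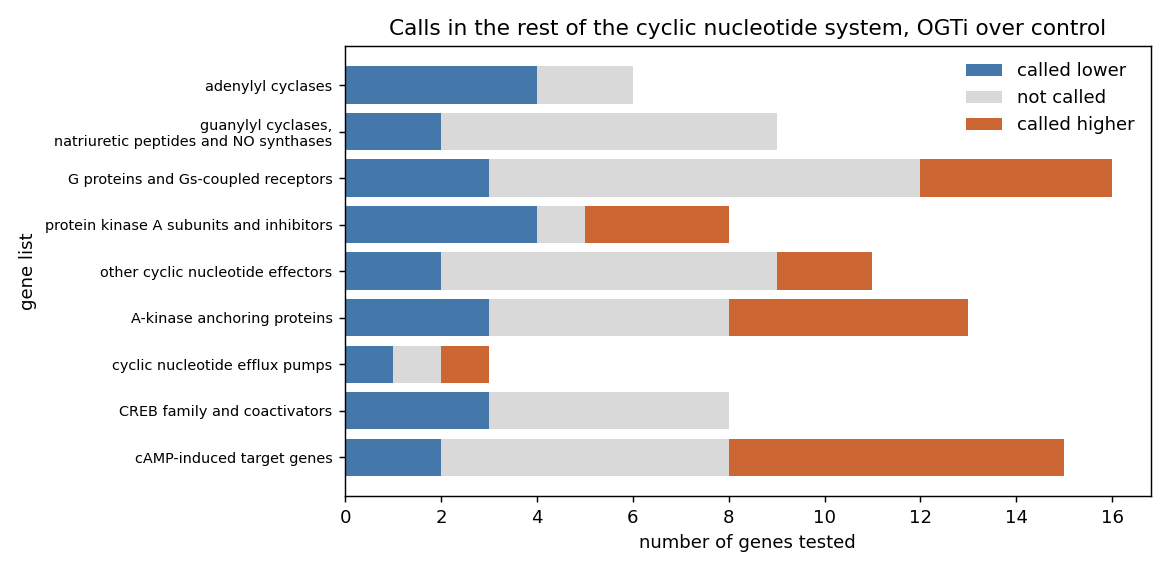
Number of genes tested (horizontal) in each of 9 lists of the cyclic nucleotide system (vertical), split into those called lower (blue), not called (grey) and called higher (orange) in OGTi against control libraries, 4 each. Adenylyl cyclases (4 lower of 6) and CREB family genes (3 lower of 8) had calls in the lower direction only, and cAMP-induced target genes had 7 higher and 2 lower of 15. Among all genes tested 21.4% were called higher and 22.6% lower, and nothing is read from the counts of the lists.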

How the data were processed

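Polyadenylated RNA of LX-2 cells was sequenced from both ends with a strand-specific DNBSEQ protocol (4 control and 4 OGTi libraries). The authors' deposited files hold expected counts per gene symbol, estimated with RSEM 1.3.1 after alignment with Bowtie2 2.3.5.1 to hg38, per the methods and the submitters' processing notes. RSEM divides a read with several alignments between genes, and 12.9% to 16.3% of the genes of a library were fractional. A deposited comparison table (means, log2 fold changes, errors, p-values) was not used.

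Expected counts were rounded, genes with fewer than 10 counts in total were left out, and 14895 genes were fitted with DESeq2 1.42.0 in R 4.3.3 (Wald test, median-of-ratios size factors, independent filtering, no shrinkage), with replicate number as a block beside treatment, as in the study's methods. A q (Benjamini-Hochberg) of 0.05 or lower was a call. The pairing follows the replicate numbers and the study's methods. Deviations of same-numbered libraries from their group means correlated across 11702 genes (r of 0.379, 0.303, 0.138 and 0.269 for replicates 1 to 4, with genes not independent replicates). However, control 3 was closer to OGTi 4 (0.272), and OGTi 3 to control 4 (0.201), than to each other. These correlations therefore do not establish the pairing of replicates 3 and 4, on which calls that need the block rest. Positions and exon lengths came from GENCODE release 44 and promoter windows (250 bases before to 50 after a start) from RefSeq. The fit was tested on simulated data.

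The genes and lists were chosen with earlier results of these data known. All catalytic PDE genes, PDE accessory genes, OGT and OGA were named, and from each list up to 3 genes with the largest Wald statistic among calls that averaged 50 or more normalized counts and moved the same way in 4 pairs. A gene that this rule names is not reported here. Alternatives were no block, edgeR 4.0.16, TMM factors, other count filters (none, or 10 counts in 4 libraries), each replicate left out and other gene lengths.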

Additional observations from a re-analysis of the deposited data

Results flagged for a closer look

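In 111 groups of 4 libraries the highest or lowest library was compared with the others by Dixon's test. For this test chance gives about 1 flag in 20 groups, or 5.55 here, and 9 were found. The rate assumes continuous values and need not hold for low counts such as those of PDE3B, whose flag rests on 1 count. No excess is therefore read from the 9 flags. Values are normalized counts. PDE3A stood at 52.1 in OGTi replicate 1, while the other 3 treated libraries had 7.01 to 13.1. PDE5A stood at 190.8 in control replicate 3 against 132 to 142, so its control mean includes a high library. Among other family genes, PDE3B had 0.974 in control replicate 1 and 0 elsewhere, PDE6A had 63.3 in control replicate 1 against 36.4 to 37.9, and PDE11A had 8.65 in OGTi replicate 3 against 1.004 to 2.003. In the pathway lists, ADCY3 had 2613 in control replicate 1 against 3180 to 3247, and CITED2 had 16400 in that library against 19618 to 19918. HCN2 had 396 in control replicate 2 against 231 to 244, and NR4A3 had 145.6 in the same library against 73.1 to 84.3.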

How the results depend on the processing

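PDE1C, PDE2A, PDE4A and PDE5A kept their direction and call under every alternative run, with PDE2A between 2.27 (without replicate 1) and 2.75. The pairs matter for the small changes: without the replicate block PDE8A (-0.25) was no longer called and PDE3A turned to 0.16, and the block changed no other call among the catalytic PDE genes. With edgeR PDE3A was at 0.021 and PDE4D (-0.29) was called, as PDE4D also was under the stricter filter (-0.29), which left out PDE4B, PDE1A and other low genes. With 1 replicate left out at a time, PDE8A was between -0.18 and -0.30, PDE4D between -0.23 and -0.39 (called without replicate 1), and PDE3A between -0.22 and 0.27 (0.03 without replicate 2). The number of family genes called lower was 3 to 5, being 3 without replicate 2 or 3, and 3 to 6 neighbouring pairs were separate in the control order. Low genes changed sign, with PDE1B between -0.50 and 0.49 over these fits (0.02 without replicate 4), PDE6B between -0.048 (without replicate 2) and 0.78, and PDE8B between -1.20 and 1.10 (0.58 without replicate 3). Of the other genes named, SOX9, VIPR1 and PRKAR2A lost their calls without the block. Per kb of GENCODE coding length, an alternative chosen after seeing the data, the control shares were 42.7% (cAMP-specific), 5.95% (cGMP-specific) and 51.4% (both). The planned RefSeq coding length was not run. The cause of these differences was not tested, other than that fewer libraries enter a fit with a replicate left out. PDE3A, PDE4B and the other genes under 20 normalized counts are limited by depth, and transcript isoforms were not measured.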
